A study of Mus musculus with 20 samples.

Results

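The genes described are the cytochrome P450 genes of mouse liver other than those of the bile acid and steroid route and of the sex-biased and fatty acid-inducible groups that the rule left out. They were taken by symbol: every listed name made of Cyp, a family number, letters and a gene number, less 13 named genes (Cyp7a1, Cyp7b1, Cyp8b1, Cyp27a1, Cyp39a1, Cyp17a1, Cyp3a16, Cyp3a44, Cyp4a10, Cyp4a12a, Cyp4a12b, Cyp4a14 and Cyp4a31). That gave 63 genes of the 13319 symbols counted. By subfamily there were 13 of Cyp2c, 9 of Cyp2d, 7 of Cyp4f, 4 of Cyp2a, 4 of Cyp3a, 3 each of Cyp1, Cyp2b and Cyp2j, and 17 of smaller groups. By chromosome 13 lie on chromosome 19, 12 on chromosome 7, 9 on chromosome 15 and 8 on chromosome 17, many of them side by side.

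Livers came from 20 male mice on a western diet, a rich diet that loads the liver with fat, 4 in each of 5 groups treated every day over 16 days. The hybrid group received 1 molecule that joins glucagon to T3, the combination group received both hormones, the T3 group received triiodothyronine (the active thyroid hormone), the glucagon group received the pancreatic peptide that drives hepatic glucose output, and the control group is labelled only as control. The hybrid libraries carry the code Cp in the labels and were assigned by elimination from the treatments the design names. All 5 groups thus share sex and diet, and the labels give no strain, age, dose or vehicle.

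P450 enzymes sit mainly in the endoplasmic reticulum, hold a heme iron, and mostly use electrons from the reductase Por to put oxygen into drugs, fatty acids, steroids and retinoids. The drug-metabolising families handle mostly foreign compounds, and their genes answer to the receptors AhR, CAR (Nr1i3) and PXR (Nr1i2), while Cyp4 enzymes oxidise fatty acid and leukotriene ends. Many are made in hepatocytes around the central vein, and mouse Cyp2a, Cyp2b, Cyp2c and Cyp2d genes include several with strong sex bias.

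Total counts ran from 6091917 to 23195658 per library, so that 3 counts were worth 0.145 to 0.479 CPM (counts scaled by library size and TMM factors to a common total). Of the 63 genes 59 had enough counts to be tested, and Cyp11a1, Cyp11b1, Cyp2b13 and Cyp2c65 did not. A gene was called at a Benjamini-Hochberg adjusted p under 0.05 over all 12907 tested genes in edgeR's quasi-likelihood test of the 5 groups, and changes are log2 ratios with their standard error, with 4 libraries a group. Where a call was lost on leaving out a library, that library is named with the range of the log2 change over all such fits. All T3 libraries were run in lane 5 and the others in lanes 1 to 4, so lane and treatment cannot be told apart in T3 against control, whereas combination against glucagon lies within lanes 1 to 4. Where a value is given with lane as a block, lanes 1 to 4 were fitted and the T3 libraries carried no lane term, so for T3 against control that fit removes lane differences among the controls and other groups only. Control 2 stood apart from the other controls: a list of 8 interferon response genes summed to 1730 CPM in it and to 107 to 310 CPM in the other 3 (348 to 661 CPM in hybrid, 207 to 610 in combination, 326 to 887 in T3 and 86.7 to 181 in glucagon livers), 7 pericentral genes without P450s summed to 655 against 1500 to 3300 CPM, and 6 muscle genes to 592 against 1.44 to 10.6 CPM. Muscle genes also summed to 1940 CPM in glucagon 3, 397 in hybrid 4 and 192 in combination 4.

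Summed over the 63 genes, the P450 transcripts made up 8880, 7320, 9040 and 8910 CPM in hybrid livers, 10000, 11200, 12200 and 12300 in combination livers, 15100, 15200, 11100 and 14700 in T3 livers and 20300, 18500, 23700 and 22300 in glucagon livers, against 39500, 10200, 28200 and 27200 in control livers. Every hybrid sum lay below every other library's sum, and the T3 and combination sums lay below every glucagon sum. Control 2 was the exception among the controls, with a sum inside the combination range. Because whole liver was sequenced, fewer cells making a transcript and less transcript per cell cannot be told apart.

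**Figure D1:**
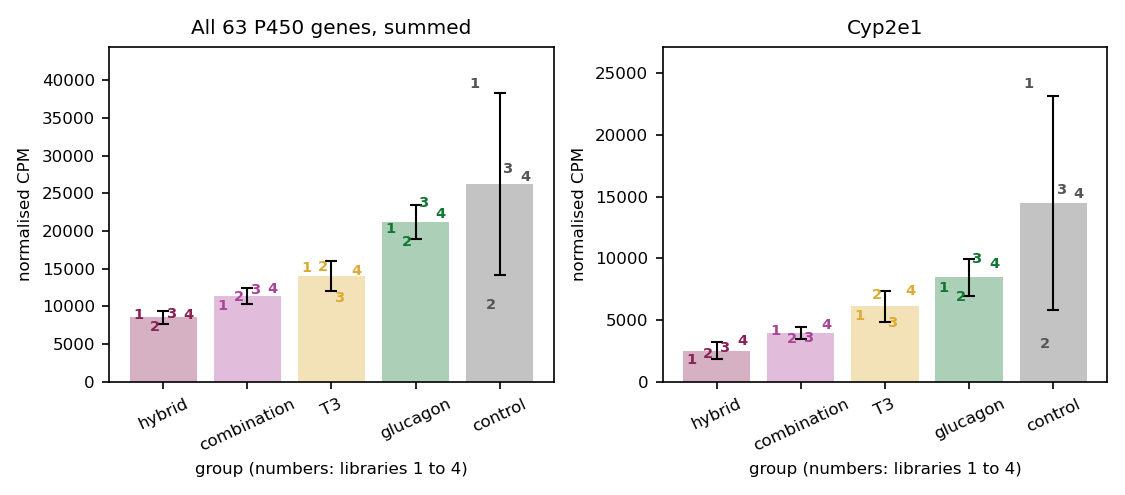
Summed normalised CPM of the 63 P450 genes (left) and of Cyp2e1 alone (right) by group. Bars are means, error bars SD over 4 libraries, and each number marks a library; control 2 lies far below the other controls, and the hybrid libraries have the lowest sums.

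In hybrid livers 26 of the 59 tested P450 genes fell and 5 rose against control, where 13.2% and 11.2% of all tested genes did so. The combination lowered 19 and raised 3, beside 10.9% and 9.23% of all genes, and T3 alone lowered 15 and raised 3, beside 10.6% and 7.31%. Glucagon alone lowered 4 and raised 5, or 6.78% and 8.47% of the tested P450 genes, beside 11.9% and 9.23% of all genes. Adding T3 to glucagon (combination against glucagon) lowered 21 and raised 6, beside 10.2% and 12.4%. The median log2 change of the P450 genes was -0.85 for hybrid, -0.67 for combination, -0.34 for T3 and -0.27 for glucagon against control, and -0.72 for combination against glucagon. Over all genes these medians were -0.05, -0.07, -0.05, -0.09 and 0.00 in the same order.

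The 4 contrasts with control share their control libraries, so their counts are not independent of each other. Without control 2 the counts lowered were 30 for hybrid, 27 for combination, 21 for T3 and 8 for glucagon, and those raised were 5, 2, 1 and 4. Over all tested genes 1952, 1524, 1513 and 1448 were then lowered and 1767, 1295, 1239 and 1273 raised, in the same order. With control 2 kept, the all-gene counts lowered were 1704, 1407, 1373 and 1541. The glucagon calls gained without control 2 were Cyp2c67, Cyp2e1, Cyp2j5, Cyp2u1 and Cyp3a25, all lower. The count lowered by glucagon was 2 without glucagon 2 or glucagon 4 and 7 without control 3, and that raised by T3 was 1 without T3 1 or control 3. Over all genes these counts were 1040, 1059 and 2104 lowered by glucagon, and 679 and 1365 raised by T3. The count raised by combination against control was 6 without control 4, and that of combination against glucagon was 3 without combination 2 or glucagon 1 and 2 without glucagon 2. Over all genes those counts were 1072 for the former, and 1346, 1250 and 1222 for the latter. Scaling by library totals alone moved the median of all genes by up to 0.31, and the split of raised to lowered P450 genes was then 7 to 15 for combination, 4 to 11 for T3 and 5 to 8 for glucagon against control, and 11 to 17 for combination against glucagon. Over all genes the splits were then 1787 to 768, 1702 to 527, 797 to 2326 and 3236 to 671, in the same order. The P450 median was then -0.64 for hybrid, -0.48 for combination, -0.14 for T3 and -0.38 for glucagon against control, beside 0.24, 0.10, 0.17 and -0.24 over all genes.

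**Figure D2:**
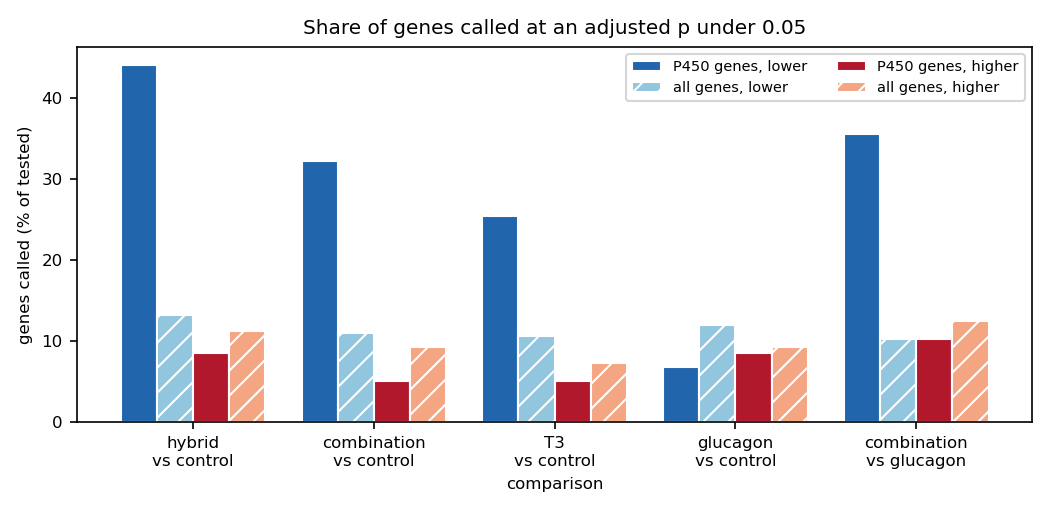
Share of the 59 tested P450 genes (solid) and of all 12907 tested genes (hatched) called lower or higher at an adjusted p under 0.05, by comparison. P450 genes called lower reach 44.1% in hybrid livers where all genes reach 13.2%.

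Lower in all 3 groups given T3 in any form, each against control, were 13 genes: Cyp2c44, Cyp2c55, Cyp2c67, Cyp2d9, Cyp2d22, Cyp2d34, Cyp2e1, Cyp2j5, Cyp2j6, Cyp2r1, Cyp2u1, Cyp3a11 and Cyp4v3. Of these 11 also fell when T3 was added to glucagon, the exceptions being Cyp2j6 and Cyp3a11. Cyp4a32 was the 1 gene higher in all 3. Across the 7 comparisons 40 of the 59 genes were called at least once and 19 never. The like patterns were not counted over all tested genes. The comparisons also share control, combination and glucagon libraries, so part of this agreement is built in. Whether these counts are high for P450 genes was not tested.

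**Figure D3:**
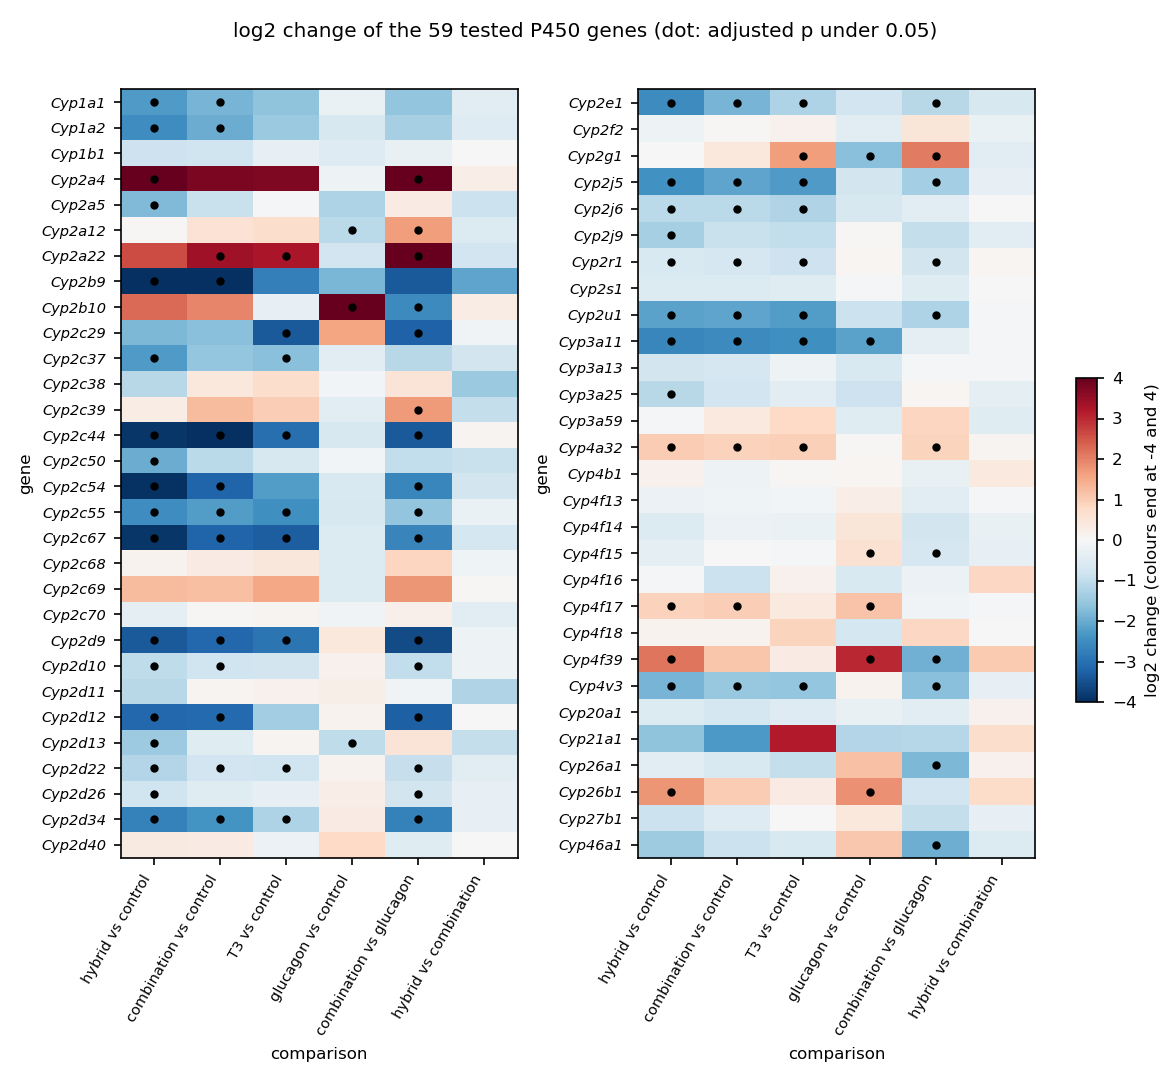
Log2 change of the 59 tested P450 genes (rows) in 6 comparisons (columns), from blue (lower) to red (higher), with a dot where the adjusted p was under 0.05. Blue with dots fills the first 3 columns for 13 genes, among them Cyp2c44, Cyp2d9 and Cyp2j5, the glucagon column has 9 dots, and the last column has none.

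Cyp2e1 (chr7:140763739-140774987, plus strand, GRCm38), the ethanol-inducible enzyme that also oxidises acetaminophen, carried the most counts of the 63 genes. Cyp2e1 stood at 1740, 2280, 2770 and 3310 CPM in hybrid, 4140, 3490, 3580 and 4590 in combination, 5340, 7040, 4720 and 7330 in T3 and 7610, 6830, 9910 and 9570 in glucagon livers, against 24100, 3020, 15500 and 15200 in control livers. The hybrid libraries were all below the T3 and glucagon libraries, and control 2 was the only control inside the treated range. The log2 change against control was -2.52 ± 0.39 (adjusted p = 0.000111) in hybrid, -1.87 ± 0.38 (adjusted p = 0.00178) in combination, -1.24 ± 0.38 (adjusted p = 0.0281) in T3 and -0.77 ± 0.37 (adjusted p = 0.15) in glucagon livers by edgeR, the last not called. Without control 2 the glucagon change was -1.10 (adjusted p = 0.00222). Adding T3 to glucagon gave -1.10 ± 0.38 (adjusted p = 0.0401), with every combination library below every glucagon library. The T3 call ended without T3 1, T3 3 or control 1 (-1.58 to -0.88), and that of combination against glucagon without any library but glucagon 2 (-1.20 to -1.03). Its share of the P450 counts was 19.5% to 37.1% in hybrid, 29.2% to 41.4% in combination, 35.5% to 49.9% in T3 and 36.9% to 42.9% in glucagon livers, against 61.1%, 29.7%, 55% and 55.9% in control livers.

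Cyp2f2, known for activating naphthalene in mouse airway, carried many counts in these livers too. Cyp2f2 stood at 2280, 1510, 2010 and 1920 CPM in hybrid, 1400, 2690, 2870 and 2290 in combination, 4250, 2330, 1960 and 1580 in T3 and 1800, 2240, 1330 and 1250 in glucagon livers, against 1950, 1740, 3150 and 2060 in control livers. Its groups overlapped throughout, and the change in hybrid livers was -0.21 ± 0.29 (adjusted p = 0.653). It was called in none of the 7 comparisons.

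Of the 3 AhR targets, Cyp1a1 and Cyp1a2 fell in hybrid and in combination livers, and none of the 3 was called with T3 or glucagon alone. Cyp1a2 stood at 14.7, 63.5, 100 and 167 CPM in hybrid, 209, 43.1, 35.8 and 203 in combination, 89.8, 277, 131 and 195 in T3 and 341, 354, 234 and 312 in glucagon livers, against 513, 212, 744 and 464 in control livers. Cyp1a2 oxidises caffeine and aromatic amines, and all its hybrid and combination values lay below every control value, though combination 1 and control 2 nearly met. The change was -2.49 ± 0.62 (adjusted p = 0.00637) in hybrid, -1.97 ± 0.61 (adjusted p = 0.0272) in combination, -1.48 ± 0.60 (adjusted p = 0.0937) in T3 and -0.64 ± 0.59 (adjusted p = 0.472) in glucagon livers against control in edgeR. Cyp1a1, a low gene with 0 to 1.66 CPM in all libraries, gave -2.28 ± 0.60 in hybrid and -1.85 ± 0.58 in combination livers. The combination calls ended for Cyp1a2 without combination 2, combination 3 or control 3 (-2.36 to -1.68) and for Cyp1a1 without combination 2, combination 3, combination 4 or control 1 (-2.08 to -1.57). The receptor gene Ahr gave -0.80 ± 0.20 (adjusted p = 0.00735) in hybrid and -0.64 ± 0.20 (adjusted p = 0.031) in glucagon livers. It was not called in combination livers, at 45.4 to 61.3 CPM, or in T3 livers, at 41.6 to 80.6 CPM, against 72.3 to 85.5 CPM in control livers.

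Among 12 tested Cyp2c genes, 6 fell in hybrid, 4 in combination and 5 in T3 livers against control, none was called with glucagon, and 5 fell and 1 rose when T3 was added to glucagon. Cyp2c44, an arachidonic acid epoxygenase, fell in all 3 groups given T3. Cyp2c44 stood at 20.6, 54.6, 33.6 and 34.2 CPM in hybrid, 44.4, 23.5, 22.2 and 42.2 in combination, 27.1, 106, 48 and 80.5 in T3 and 318, 387, 402 and 256 in glucagon livers, against 537, 440, 710 and 419 in control livers. The 12 libraries with T3 in any form lay between 20.6 and 106 CPM and the 8 others between 256 and 710 CPM. Cyp2c44 gave -3.88 ± 0.39 (adjusted p = 1.17e-06) in hybrid, -3.99 ± 0.39 (adjusted p = 9.93e-07) in combination, -3.01 ± 0.37 (adjusted p = 2.39e-05) in T3 and -0.63 ± 0.35 (adjusted p = 0.208) in glucagon livers against control, and -3.36 ± 0.38 (adjusted p = 2.73e-06) for combination against glucagon.

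Cyp2c67 fell in the same 3 groups. Cyp2c67 stood at 2.12, 1.7, 1.35 and 2.15 CPM in hybrid, 2.66, 3.11, 2.38 and 3.8 in combination, 3.19, 2.49, 3.18 and 2.08 in T3 and 21, 14.2, 21.8 and 17.3 in glucagon livers, against 47.9, 16.8, 24.3 and 20 in control livers. Each of the 12 libraries with T3 had 1.35 to 3.8 CPM and each of the 8 others 14.2 to 47.9 CPM. The change was -3.89 ± 0.30 (adjusted p = 7.47e-08) in hybrid, -3.19 ± 0.29 (adjusted p = 4.68e-07) in combination, -3.30 ± 0.30 (adjusted p = 6.31e-07) in T3 and -0.55 ± 0.26 (adjusted p = 0.134) in glucagon livers, and -2.64 ± 0.29 for combination against glucagon.

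Its neighbours Cyp2c68 and Cyp2c69 on the same stretch of chromosome 19 were not called in any comparison. Cyp2c68 ranged over 7.28 to 16.2 CPM in hybrid, 10 to 17.2 in combination, 12.8 to 18 in T3 and 3.36 to 12.1 in glucagon livers, against 8.72 to 17 in control livers. Cyp2c69 ranged over 0.329 to 1.98 CPM in hybrid, 0.415 to 2.22 in combination, 0.786 to 1.89 in T3 and 0 to 0.805 in glucagon livers, against 0.377 to 0.588 in control livers. Both overlapped with control in every group but T3, where all 4 libraries of Cyp2c69 were above the controls. Cyp2c68 gave 0.15 ± 0.31 (adjusted p = 0.777) in hybrid, 0.32 ± 0.31 (adjusted p = 0.503) in combination and 0.46 ± 0.32 (adjusted p = 0.335) in T3 livers, and for Cyp2c69 the values were 1.26 ± 0.64 (adjusted p = 0.164), 1.20 ± 0.65 (adjusted p = 0.202) and 1.54 ± 0.66 (adjusted p = 0.112) in the same order. With lane as a block both were higher in combination than in glucagon livers, with adjusted p = 0.038 for Cyp2c68 and 0.0415 for Cyp2c69, against 0.0566 and 0.0743 without it. The 3 genes share much transcript sequence: of their 50-base stretches, 52.8% in Cyp2c67, 43.3% in Cyp2c68 and 54.3% in Cyp2c69 also occur in another gene, most often Cyp2c40, so their counts may be split between copies. They also share a promoter stretch, shown because their levels and calls differ beside it. The letters run 5′ to 3′ on the minus strand of chromosome 19 (GRCm38.p6, promoters from RefSeq), with the motif CAAAGTCCA, known as an HNF4A-type site, in capitals.

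Cyp2c67: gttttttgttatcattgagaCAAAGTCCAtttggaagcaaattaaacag
Cyp2c68: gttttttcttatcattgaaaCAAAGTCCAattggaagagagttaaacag
Cyp2c69: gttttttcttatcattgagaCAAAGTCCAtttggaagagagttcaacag

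The stretches lie at chr19:39649139-39649187, chr19:39741150-39741198 and chr19:39886816-39886864, with the motif 125, 77 and 75 bases before the start. Of 49 bases, 6 differ between Cyp2c67 and Cyp2c68, 5 between Cyp2c67 and Cyp2c69 and 3 between Cyp2c68 and Cyp2c69. The motif was picked with the results known, and its presence says nothing of binding here.

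Cyp2c29, an epoxygenase and CAR target, fell with T3. Cyp2c29 stood at 694, 104, 177 and 73 CPM in hybrid, 155, 288, 474 and 240 in combination, 163, 58.6, 48.8 and 82.5 in T3 and 2040, 1530, 4100 and 3310 in glucagon livers, against 1300, 140, 884 and 1340 in control livers. All 4 glucagon livers were above all controls, all T3 livers but the first were below every control, and control 2 was about as low as T3 1. T3 gave -3.37 ± 0.71 (adjusted p = 0.0032) and glucagon 1.58 ± 0.66 (adjusted p = 0.093) against control, of which the T3 value was called, and combination against glucagon gave -3.25 ± 0.70 (adjusted p = 0.00203). Hybrid livers gave -1.80 ± 0.66 (adjusted p = 0.0526), called with lane as a block at an adjusted p of 0.0434, with hybrid 1 at 694 CPM far above the other 3. Without hybrid 1 the hybrid change was -2.96 (adjusted p = 0.00289), and without control 2 it was -2.15 (adjusted p = 0.0108).

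Cyp2c54 stood at 0.979, 3.78, 10.6 and 9.89 CPM in hybrid, 18.4, 3.03, 2.14 and 17 in combination, 4.05, 26.1, 13.6 and 37.1 in T3 and 66.2, 38, 86.6 and 56.3 in glucagon livers, against 181, 5.99, 112 and 78.8 in control livers. Control 2 was the low exception among the controls, and hybrid 1, combination 3 and T3 1 were each the lowest of their group. Cyp2c54 fell in hybrid (-3.94 ± 0.89, adjusted p = 0.00318) and combination livers (-3.21 ± 0.86, adjusted p = 0.0121), while T3 gave -2.23 ± 0.83 (adjusted p = 0.0652). Combination against glucagon gave -2.60 ± 0.84, a call that ended without combination 2, combination 3, glucagon 1 or glucagon 3 (-3.10 to -2.28). Cyp2c55 ranged over 0.747 to 1.98 CPM in hybrid, 1.44 to 2.23 in combination, 1.05 to 1.6 in T3 and 2.33 to 6.32 in glucagon livers, against 2.65 to 14.8 in control livers. Cyp2c37 ranged over 5.69 to 16.2 CPM in hybrid, 10.2 to 22.6 in combination, 14.3 to 16.9 in T3 and 22.6 to 52.5 in glucagon livers, against 3.24 to 98.7 in control livers. Cyp2c55 fell in all 3 T3-holding groups (-2.50 ± 0.42 in hybrid, -2.23 ± 0.41 in combination, -2.46 ± 0.44 in T3), and Cyp2c50 in hybrid livers (-1.97 ± 0.54). Cyp2c37 fell in hybrid (-2.26 ± 0.57) and T3 livers (-1.68 ± 0.56), the T3 call ending with lanes 1 to 4 of the other groups as a block (adjusted p = 0.0589) and without every single library but control 2 (-2.07 to -1.12). Cyp2c39 rose when T3 was added to glucagon (1.71 ± 0.58), a call that ended without combination 2, combination 3, glucagon 1, glucagon 2 or glucagon 4 (1.37 to 2.14).

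Cyp2c70 stood at 794, 784, 895 and 500 CPM in hybrid, 821, 1100, 1110 and 919 in combination, 1110, 942, 713 and 1360 in T3 and 1100, 693, 857 and 803 in glucagon livers, against 1570, 835, 646 and 746 in control livers. Cyp2c70 makes muricholic acids in mice. Its groups overlapped in each comparison, with -0.35 ± 0.26 (adjusted p = 0.346) in hybrid livers, and it was called nowhere. Of the 11 tested arachidonic acid epoxygenases of Cyp2c and Cyp2j, 8 fell in hybrid, 5 in combination and 6 in T3 livers, none was called with glucagon, and 5 fell and 1 rose in combination against glucagon. Their median log2 change was -1.97 in hybrid, -1.54 in combination, -1.68 in T3 and -0.45 in glucagon livers, and -1.10 for combination against glucagon.

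Of the 3 Cyp2j genes, epoxygenases as well, all fell in hybrid livers, and Cyp2j5 and Cyp2j6 fell in combination and T3 livers too. Cyp2j5 had 52.6 to 88.4 CPM in hybrid, 74.9 to 104 in combination, 63.6 to 101 in T3 and 195 to 296 in glucagon livers, against 197 to 790 in control livers. Combination against glucagon gave -1.35 ± 0.31 (adjusted p = 0.00353). Against control it gave -2.42 ± 0.32 in hybrid, -2.10 ± 0.32 in combination and -2.26 ± 0.32 in T3 livers, which without control 1 became -1.82, -1.51 and -1.66 and remained called. Cyp2j6 ranged over 13.9 to 21.5 CPM in hybrid, 16 to 20.4 in combination, 15.2 to 17.6 in T3 and 21 to 31.2 in glucagon livers, against 21.3 to 65.3 in control livers. Cyp2j6 gave -1.08 ± 0.24, -1.09 ± 0.24 and -1.21 ± 0.25 in the same order. Cyp2j9 fell in hybrid livers (-1.33 ± 0.41), a call that ended without hybrid 1, hybrid 2, hybrid 4, control 1 or control 3 (-1.58 to -0.91).

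Of 9 tested Cyp2d genes, 7 fell in hybrid, 5 in combination and 3 in T3 livers against control, and 6 fell in combination against glucagon, while glucagon alone lowered 1. Cyp2d9, a testosterone hydroxylase favoured in male mice, was among those called lower in each T3-holding group. Cyp2d9 stood at 20.7, 33.8, 30.6 and 160 CPM in hybrid, 141, 30.8, 35.6 and 72.2 in combination, 21.1, 140, 56.7 and 109 in T3 and 1050, 757, 708 and 839 in glucagon livers, against 707, 269, 865 and 649 in control livers. Every library with T3 lay below every glucagon and control library, and hybrid 4 was the high exception of its group. Cyp2d9 gave -3.35 ± 0.66 (adjusted p = 0.00102) in hybrid, -3.15 ± 0.66 (adjusted p = 0.00199) in combination, -2.93 ± 0.65 (adjusted p = 0.00479) in T3 and 0.43 ± 0.60 (adjusted p = 0.647) in glucagon livers, and -3.58 ± 0.67 (adjusted p = 0.000588) for combination against glucagon. Without hybrid 4 the hybrid change was -4.44, and without combination 1 the combination changes were -3.75 against control and -4.20 against glucagon.

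Cyp2d26 stood at 1020, 753, 824 and 752 CPM in hybrid, 831, 996, 1210 and 1160 in combination, 1180, 1300, 1010 and 1170 in T3 and 1600, 1630, 1920 and 1840 in glucagon livers, against 1760, 886, 1610 and 1620 in control livers. Cyp2d10 stood at 145, 144, 150 and 216 CPM in hybrid, 170, 160, 218 and 208 in combination, 182, 197, 209 and 215 in T3 and 378, 334, 410 and 367 in glucagon livers, against 557, 160, 272 and 332 in control livers. In Cyp2d26 all hybrid values but the first lay below all others, with combination 1 the closest, and in Cyp2d10 control 2 lay inside the T3-holding range. Cyp2d26 fell in hybrid livers (-0.81 ± 0.19, adjusted p = 0.00427) and in combination against glucagon (-0.74 ± 0.19, adjusted p = 0.00817). Cyp2d10 fell in hybrid (-1.02 ± 0.25, adjusted p = 0.00586) and combination livers (-0.81 ± 0.25, adjusted p = 0.0277) and in combination against glucagon (-0.98 ± 0.25, adjusted p = 0.00759). Its combination call against control ended without combination 1, combination 2 or control 1 (-1.04 to -0.44). Of the stretches of Cyp2d10, 35.2% also occur in another gene, chiefly Cyp2d11, which was not called (-1.11 ± 0.46 in hybrid livers, adjusted p = 0.0175 with lane as a block).

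Cyp2d12 stood at 0.109, 0.0548, 0.271 and 0.467 CPM in hybrid, 0.355, 0.0798, 0.0822 and 0.278 in combination, 0.368, 1.05, 0.59 and 0.799 in T3 and 1.73, 1.16, 2.16 and 3.22 in glucagon livers, against 2.09, 1.06, 2.16 and 2.11 in control livers. These are low values, many at or under the 3-count limit, and every hybrid and combination library was below every glucagon and control library. Cyp2d12 gave -3.13 ± 0.54 (adjusted p = 0.000309) in hybrid and -3.10 ± 0.54 (adjusted p = 0.000415) in combination livers, -1.39 ± 0.50 (adjusted p = 0.0563) in T3 livers (adjusted p = 0.0272 with lanes 1 to 4 of the other groups as a block) and -3.26 ± 0.54 (adjusted p = 0.000196) for combination against glucagon. Cyp2d22 ranged over 116 to 144 CPM in hybrid, 158 to 192 in combination, 157 to 190 in T3 and 298 to 367 in glucagon livers, against 155 to 388 in control livers. Cyp2d34 ranged over 0.219 to 0.653 CPM in hybrid, 0.415 to 0.575 in combination, 0.799 to 1.57 in T3 and 2.21 to 4.73 in glucagon livers, against 1.5 to 4.45 in control livers. Cyp2d13 ranged over 21.2 to 46.8 CPM in hybrid, 56.1 to 98.1 in combination, 90.1 to 139 in T3 and 46.7 to 56.5 in glucagon livers, against 32.6 to 156 in control livers. Cyp2d22 and Cyp2d34 fell in hybrid (-1.17 ± 0.20 and -2.71 ± 0.43), combination (-0.77 ± 0.20 and -2.38 ± 0.42) and T3 livers (-0.79 ± 0.20 and -1.25 ± 0.41), the T3 call of Cyp2d34 ending without T3 1, T3 3, T3 4, control 3 or control 4 (-1.46 to -0.89). Both genes also fell in combination against glucagon (-0.91 ± 0.20 for Cyp2d22 and -2.71 for Cyp2d34). Cyp2d13 fell in hybrid (-1.44 ± 0.33) and glucagon livers (-1.01 ± 0.33), the glucagon call ending with lane as a block (adjusted p = 0.0526) and without glucagon 1, glucagon 2, glucagon 3, glucagon 4, control 1 or control 3 (-1.29 to -0.72).

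Cyp3a11 (chr5:145854426-145879964, minus strand), the main drug-oxidising Cyp3a enzyme of mouse liver and a PXR target, was the 1 gene lower than control in all 4 treated groups. Cyp3a11 stood at 178, 64.7, 79.8 and 28.3 CPM in hybrid, 85.3, 91.6, 109 and 84.1 in combination, 110, 113, 91.7 and 76.5 in T3 and 98.2, 126, 118 and 144 in glucagon livers, against 651, 499, 290 and 710 in control livers. The 4 treated groups overlapped one another between 28.3 and 178 CPM, and every control was above them. The change was -2.61 ± 0.38 (adjusted p = 5.15e-05) in hybrid, -2.54 ± 0.38 (adjusted p = 9.06e-05) in combination, -2.46 ± 0.38 (adjusted p = 0.000205) in T3 and -2.15 ± 0.37 (adjusted p = 0.000348) in glucagon livers. Without hybrid 1 the hybrid value was -3.22. Adding T3 to glucagon gave -0.39 ± 0.36 (adjusted p = 0.484) against the -2.46 of T3 without glucagon. The difference between these T3 effects was 2.07 ± 0.51 (adjusted p = 0.0245), a comparison in which 1.6% of all tested genes were called higher and 2.14% lower. That call ended without combination 3, T3 3, T3 4, glucagon 1, glucagon 2 or control 4 (1.89 to 2.27). Cyp3a25 ranged over 25.4 to 56.5 CPM in hybrid, 22.1 to 71.2 in combination, 47.9 to 68.2 in T3 and 32.5 to 58.1 in glucagon livers, against 35.3 to 151 in control livers. Of the other Cyp3a genes, Cyp3a25 fell in hybrid livers (-1.11 ± 0.37), a call that ended without hybrid 2, hybrid 3, hybrid 4 or control 1 (-1.39 to -0.60), and Cyp3a13 and Cyp3a59 were called nowhere.

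Cyp2b10 (chr7:25897620-25926624, plus strand), the classical phenobarbital-inducible CAR target, rose with glucagon. Cyp2b10 stood at 19.4, 1.26, 3.61 and 0.467 CPM in hybrid, 1.36, 6.62, 10.7 and 1.86 in combination, 2.21, 0.262, 0.826 and 0.799 in T3 and 20.4, 10.7, 50.5 and 39.3 in glucagon livers, against 0.481, 2.51, 0.294 and 1.73 in control livers. All 4 glucagon livers, at 10.7 to 50.5 CPM, were above all controls, at 0.294 to 2.51 CPM, while hybrid and combination livers spread over both ranges. Glucagon gave 4.52 ± 0.94 (adjusted p = 0.00196) against control and 5.16 without control 2. Combination against glucagon gave -2.56 ± 0.84 (adjusted p = 0.0337), or -3.22 without combination 3, a call that ended without combination 1, combination 2, combination 4, glucagon 3 or glucagon 4 (-3.22 to -2.20). Against control, hybrid livers gave 2.27 ± 0.90 (adjusted p = 0.0737), combination livers 1.96 ± 0.91 (adjusted p = 0.135) and T3 livers -0.33 ± 1.09 (adjusted p = 0.861).

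The list of 6 CAR and PXR targets (Cyp2b10, Cyp3a11, Cyp2c29, Cyp2c37, Cyp2c55 and Cyp2a5) held 4 that fell in hybrid, 2 in combination and 4 in T3 livers, with no riser, whereas glucagon raised 1 and lowered 1 and combination against glucagon lowered 3. The receptor genes themselves gave -1.07 ± 0.42 (adjusted p = 0.0713) for Nr1i3 (CAR) and -0.20 ± 0.18 (adjusted p = 0.439) for Nr1i2 (PXR) in hybrid livers. In glucagon livers the values were -1.10 ± 0.42 (adjusted p = 0.0714) for Nr1i3 and 0.47 ± 0.18 (adjusted p = 0.0618) for Nr1i2. Nr1i2 fell when T3 was added to glucagon (-0.56 ± 0.18, adjusted p = 0.0248). Of 9 listed regulators of P450 genes 1 fell in hybrid livers, 1 rose in combination livers, none was called in T3 livers, 3 fell in glucagon livers, and in combination against glucagon Nr1i2 fell while Ppara (0.99 ± 0.21) and Arnt (0.69 ± 0.17) rose.

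**Figure D4:**
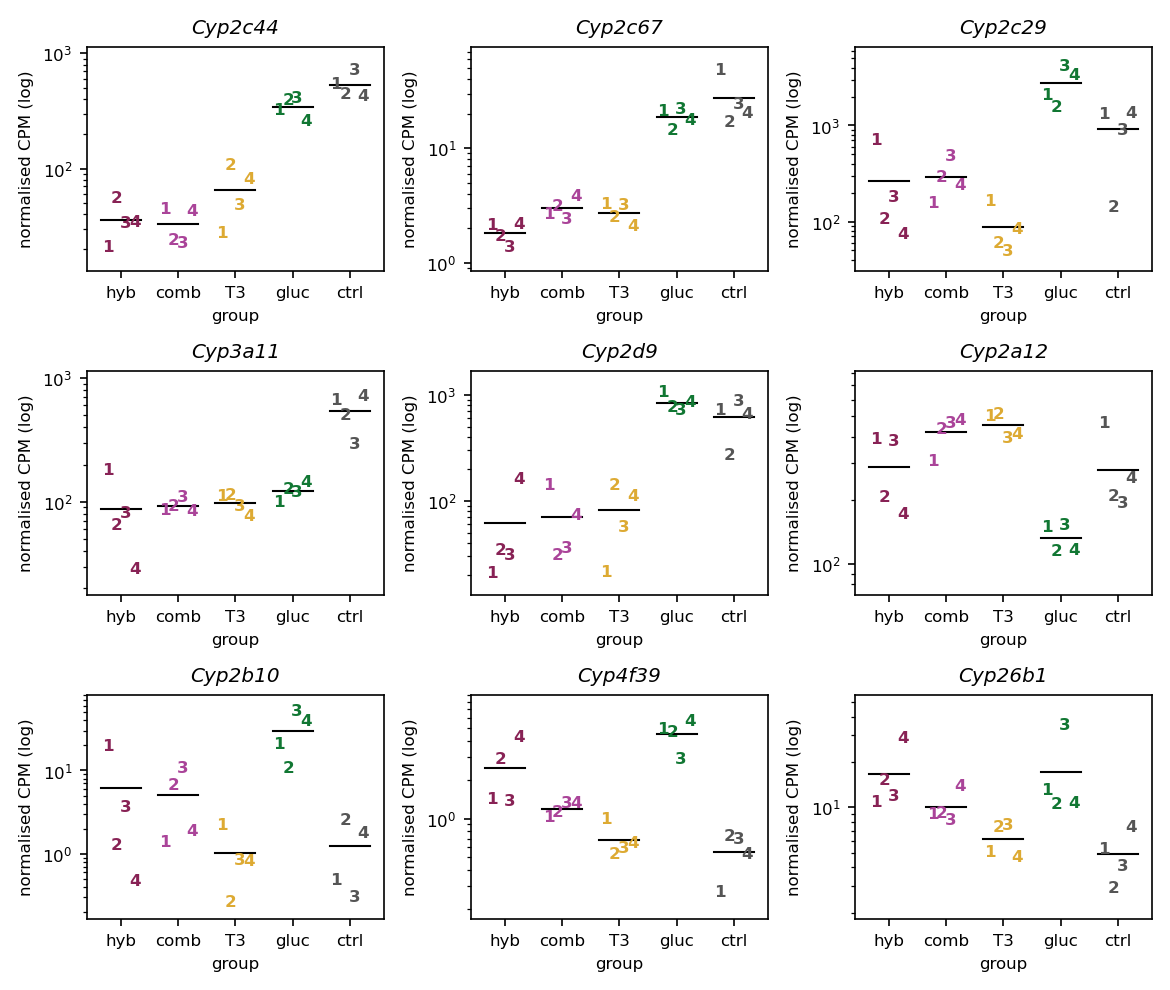
Normalised CPM on log axes of 9 P450 genes in each library (numbers 1 to 4), with group means as lines; hyb, comb, gluc and ctrl are hybrid, combination, glucagon and control. Cyp2c44 and Cyp2c67 are low in every library with T3, Cyp3a11 is low in every treated library, and Cyp2b10 and Cyp4f39 are highest with glucagon.

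Glucagon raised 5 genes in all: Cyp2b10, 3 Cyp4f genes and Cyp26b1. Cyp4f39, whose human counterpart hydroxylates very long fatty acids for skin ceramides, had the second largest log2 change of the 5. Cyp4f39 stood at 1.41, 2.85, 1.35 and 4.2 CPM in hybrid, 1.01, 1.12, 1.31 and 1.3 in combination, 0.981, 0.524, 0.59 and 0.639 in T3 and 4.89, 4.59, 2.87 and 5.64 in glucagon livers, against 0.267, 0.724, 0.686 and 0.528 in control livers. Every glucagon library was above every T3 and control library, all hybrid and combination libraries were above all controls, and the combination values were below all glucagon and hybrid values. Cyp4f39 gave 2.14 ± 0.39 (adjusted p = 0.000457) in hybrid, 1.10 ± 0.40 (adjusted p = 0.0567) in combination (0.0355 with lane as a block), 0.33 ± 0.44 (adjusted p = 0.649) in T3 and 3.02 ± 0.39 (adjusted p = 1.1e-05) in glucagon livers against control, and -1.92 ± 0.36 (adjusted p = 0.000655) for combination against glucagon. The T3 effect differed with and without glucagon, by -2.25 ± 0.58 (adjusted p = 0.0308), a call that ended without combination 1, combination 2, T3 1, T3 4, glucagon 1, glucagon 2 or glucagon 4 (-2.47 to -2.01).

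Cyp4f17 stood at 14.1, 10.8, 14.8 and 15.3 CPM in hybrid, 15.5, 14.3, 14.1 and 13.6 in combination, 10.9, 6.95, 7.9 and 12.1 in T3 and 20.2, 16.1, 9.63 and 17.6 in glucagon livers, against 5.72, 5.99, 9.41 and 8.15 in control livers. All hybrid, combination and glucagon libraries were above every control, glucagon 3 only just, and T3 livers overlapped controls. Cyp4f17 rose in hybrid (0.92 ± 0.22, adjusted p = 0.00523), combination (0.98 ± 0.22, adjusted p = 0.00405) and glucagon livers (1.13 ± 0.22, adjusted p = 0.00123), with 0.38 ± 0.23 (adjusted p = 0.259) in T3 livers. Cyp4f15 stood at 204, 159, 211 and 245 CPM in hybrid, 236, 289, 271 and 242 in combination, 267, 268, 189 and 298 in T3 and 395, 386, 432 and 421 in glucagon livers, against 300, 147, 315 and 299 in control livers. Glucagon libraries were the highest, and control 2 at 147 CPM was the lowest of all. Cyp4f15 rose with glucagon (0.62 ± 0.20, adjusted p = 0.0325), a call that ended without glucagon 1, glucagon 2, glucagon 3, glucagon 4 or control 2 (0.44 to 0.71), and fell when T3 was added (-0.66 ± 0.20, adjusted p = 0.023), a call that ended without combination 1, combination 4 or glucagon 3 (-0.72 to -0.62). Cyp4f14 stood at 133, 250, 346 and 335 CPM in hybrid, 320, 263, 355 and 374 in combination, 218, 378, 274 and 424 in T3 and 650, 429, 497 and 579 in glucagon livers, against 411, 228, 518 and 393 in control livers. Cyp4f14, a leukotriene hydroxylase, was highest with glucagon but gave 0.48 ± 0.28 (adjusted p = 0.24) there and -0.72 ± 0.28 (adjusted p = 0.0721) for combination against glucagon (0.0496 with lane as a block). Cyp4f13, Cyp4f16 and Cyp4f18 were called nowhere.

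Cyp26a1 and Cyp26b1 clear retinoic acid. Cyp26b1 stood at 10.8, 15.1, 11.8 and 28.7 CPM in hybrid, 9, 9.09, 8.22 and 13.8 in combination, 5.03, 7.34, 7.55 and 4.63 in T3 and 12.9, 10.5, 34.8 and 10.6 in glucagon livers, against 5.29, 2.9, 4.02 and 7.39 in control livers. All hybrid, combination and glucagon libraries were above all controls, with glucagon 3 and hybrid 4 highest. Cyp26b1 rose in hybrid (1.76 ± 0.39, adjusted p = 0.00293) and glucagon livers (1.82 ± 0.39, adjusted p = 0.00259, 1.22 without glucagon 3), while combination livers gave 1.03 ± 0.39 (adjusted p = 0.0682) (0.0473 with lane as a block) and T3 livers 0.33 ± 0.41 (adjusted p = 0.604). Cyp26a1 stood at 7.23, 5.97, 11.2 and 7.47 CPM in hybrid, 6.63, 8.69, 7.23 and 5.66 in combination, 2.7, 5.24, 8.96 and 5.75 in T3 and 13.9, 14.1, 48.6 and 21.4 in glucagon livers, against 20.7, 7, 11.6 and 4.15 in control livers. Glucagon 3 was again the highest library, and control 1 reached the glucagon range. Cyp26a1 gave 1.17 ± 0.43 (adjusted p = 0.0612) with glucagon against control and fell when T3 was added to glucagon (-1.79 ± 0.45, adjusted p = 0.00619). Cyp46a1 ranged over 1.42 to 3.75 CPM in hybrid, 2.25 to 6.25 in combination, 3.36 to 6.74 in T3 and 8.21 to 23.5 in glucagon livers, against 1.21 to 12.7 in control livers. Cyp46a1, a cholesterol hydroxylase best known from brain, fell likewise when T3 was added (-1.94 ± 0.52) and gave 1.08 ± 0.50 (adjusted p = 0.128) with glucagon (0.0315 with lane as a block).

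The 4 Cyp2a genes on chromosome 7 did not move as 1 group. Cyp2a4, a steroid hydroxylase favoured in female mice, and Cyp2a5, a coumarin hydroxylase, have nearly identical starts: over 299 aligned promoter bases 5 differ, that is 98.3% are identical. Both promoters (RefSeq, GRCm38.p6, plus strand, chr7:26306942-26307241 for Cyp2a4 and chr7:26835089-26835388 for Cyp2a5) are shown because the 2 genes gave opposite signs in hybrid livers. Capitals mark the 5 bases that differ.

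Cyp2a4: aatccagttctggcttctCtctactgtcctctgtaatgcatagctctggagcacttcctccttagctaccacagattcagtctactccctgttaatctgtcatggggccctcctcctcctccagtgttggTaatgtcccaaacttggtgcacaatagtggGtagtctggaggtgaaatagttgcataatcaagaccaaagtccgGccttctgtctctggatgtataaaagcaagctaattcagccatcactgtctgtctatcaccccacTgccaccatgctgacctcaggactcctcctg
Cyp2a5: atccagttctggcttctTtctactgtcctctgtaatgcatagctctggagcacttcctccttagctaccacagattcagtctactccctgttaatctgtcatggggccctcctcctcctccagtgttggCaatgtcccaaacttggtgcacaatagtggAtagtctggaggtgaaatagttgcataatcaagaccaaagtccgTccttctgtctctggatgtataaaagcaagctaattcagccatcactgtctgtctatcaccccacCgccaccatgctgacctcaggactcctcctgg

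Cyp2a4 stood at 75.1, 2.03, 21.5 and 0.933 CPM in hybrid, 2.25, 21.5, 55.4 and 5.57 in combination, 66.2, 5.24, 8.14 and 1.28 in T3 and 0.418, 0.259, 4.02 and 0.604 in glucagon livers, against 0.588, 1.01, 0.588 and 4.07 in control livers. Values within the T3-holding groups spread over a wide range, with hybrid 1, combination 3 and T3 1 far above the controls and hybrid 4 among them. Cyp2a4 rose in hybrid livers (4.02 ± 1.36, adjusted p = 0.0361), a call lost with lane as a block (adjusted p = 0.166) and without hybrid 1, hybrid 3, control 1, control 2 or control 3 (2.38 to 5.04). It rose in combination against glucagon (3.99 ± 1.38, adjusted p = 0.0427), lost without combination 2, combination 3, glucagon 1, glucagon 2 or glucagon 4 (2.86 to 5.65), while combination gave 3.77 ± 1.35 (adjusted p = 0.0545) and T3 3.72 ± 1.36 (adjusted p = 0.0621) against control. Cyp2a5, at 6.95 to 42.4 CPM in hybrid against 46.9 to 111 CPM in control livers without overlap, fell in hybrid livers (-1.76 ± 0.48, adjusted p = 0.0116). In glucagon livers it gave -1.23 ± 0.48 (adjusted p = 0.0716), or 0.0356 with lane as a block. The hybrid change of Cyp2a4 was largest without control 4 and smallest without hybrid 1, and that against glucagon was largest without glucagon 3 and smallest without combination 3. Of the 50-base stretches of Cyp2a4, 38% also occur in another gene, chiefly Cyp2a5, so reads may be split between them.

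Cyp2a22 stood at 33.7, 1.7, 12.6 and 0.933 CPM in hybrid, 2.43, 27, 40.3 and 15 in combination, 53.8, 8.13, 8.73 and 6.71 in T3 and 0.358, 0.388, 3.59 and 0.302 in glucagon livers, against 1.5, 1.64, 0.98 and 3.92 in control livers. T3 libraries were all above the controls, and hybrid 2, hybrid 4 and combination 1 did not exceed the control range. Cyp2a22 rose in combination (3.39 ± 1.05, adjusted p = 0.0272) and T3 livers (3.27 ± 1.05, adjusted p = 0.0364) and in combination against glucagon (4.17 ± 1.12, adjusted p = 0.01), with 2.62 ± 1.03 (adjusted p = 0.0706) in hybrid livers. The combination call against control ended without combination 2, combination 3, control 1, control 2 or control 3 (2.86 to 3.90). The T3 call ended with lanes 1 to 4 of the other groups as a block (adjusted p = 0.0559) and without T3 1, control 1, control 2 or control 3 (1.97 to 3.78), and the change was 1.97 without T3 1. Without glucagon 3 the change against glucagon was 5.85.

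Cyp2a12 stood at 390, 206, 382 and 172 CPM in hybrid, 305, 435, 461 and 477 in combination, 499, 512, 391 and 409 in T3 and 149, 114, 152 and 116 in glucagon livers, against 462, 209, 193 and 255 in control livers. Every glucagon library was below every other group's libraries, and combination and T3 livers were mostly above controls. Cyp2a12, which hydroxylates bile acids in mice, fell with glucagon (-1.08 ± 0.28, adjusted p = 0.00887) and rose when T3 was added to it (1.66 ± 0.28, adjusted p = 0.00025). Against control it gave 0.04 ± 0.27 (adjusted p = 0.938) in hybrid, 0.58 ± 0.28 (adjusted p = 0.142) in combination and 0.69 ± 0.28 (adjusted p = 0.0865) in T3 livers. Cyp2a12 and Cyp2a22 share 20.1% and 20.2% of their stretches with each other.

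Cyp2b9 stood at 0.163, 0, 0.0902 and 0 CPM in hybrid, 0.296, 0.239, 0.411 and 0.371 in combination, 4.66, 1.57, 0.944 and 0 in T3 and 0.239, 0.129, 12.7 and 0.705 in glucagon livers, against 0.588, 0.145, 0.098 and 48.3 in control livers. Control 4 was far above all other libraries, glucagon 3 and T3 1 followed, and most others were near the 3-count limit, so these counts do not fix the size of a change. Cyp2b9, favoured in female mice, was called lower in hybrid (fitted log2 -7.30 ± 2.04, adjusted p = 0.0129) and combination livers (-5.19 ± 1.70, adjusted p = 0.036), and both calls ended without control 4, with -1.98 in hybrid and 0.14 in combination livers. Without hybrid 1 the hybrid value was -8.45. The combination call also ended without any 1 combination library and with lane as a block (adjusted p = 0.136). Cyp2g1 stood at 1.96, 0.657, 3.43 and 0.28 CPM in hybrid, 1.66, 1.91, 2.79 and 2.23 in combination, 4.91, 5.64, 6.02 and 3.84 in T3 and 0.298, 0.129, 0.862 and 0.805 in glucagon livers, against 1.18, 1.35, 1.37 and 2.56 in control livers. Glucagon libraries were all below and T3 libraries all above the controls. Cyp2g1, known from olfactory mucosa, fell with glucagon (-1.66 ± 0.58, adjusted p = 0.0481), rose with T3 (1.66 ± 0.52, adjusted p = 0.0322) and rose when T3 was added to glucagon (2.07 ± 0.58, adjusted p = 0.0135). Of the 3 tested genes of the female-biased list (Cyp2a4, Cyp2b9 and Cyp2c69), 1 rose and 1 fell in hybrid, 1 fell in combination and none was called in T3 or glucagon livers. The Cyp2g1 calls ended without glucagon 1, glucagon 2, glucagon 4, control 2 or control 4 for glucagon (-2.06 to -1.32), without T3 1, T3 2, T3 3, control 1 or control 2 for T3 (1.54 to 1.97) and without glucagon 2 for the last (1.72 to 2.47).

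Cyp4v3, the counterpart of a human fatty acid hydroxylase gene, fell in all 3 T3-holding groups. Cyp4v3 stood at 339, 251, 276 and 330 CPM in hybrid, 372, 380, 308 and 449 in combination, 414, 426, 315 and 343 in T3 and 1280, 1510, 1040 and 1000 in glucagon livers, against 2070, 542, 896 and 854 in control livers. Each T3-holding library lay below every glucagon and control library. The change was -1.87 ± 0.29 (adjusted p = 0.000103) in hybrid, -1.53 ± 0.29 (adjusted p = 0.000822) in combination, -1.54 ± 0.29 (adjusted p = 0.00124) in T3 and 0.15 ± 0.28 (adjusted p = 0.744) in glucagon livers. Cyp2u1 ranged over 4.13 to 10.2 CPM in hybrid, 4.31 to 8.07 in combination, 3.07 to 9.7 in T3 and 9.27 to 19 in glucagon livers, against 13.3 to 48.6 in control livers. Cyp2u1, also a fatty acid hydroxylase, gave -2.15 ± 0.39 in hybrid, -2.11 ± 0.39 in combination and -2.23 ± 0.40 in T3 livers. Its fall in combination against glucagon (-1.25 ± 0.39) ended without combination 2, combination 3 or glucagon 2 (-1.43 to -1.12).

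Cyp4a32 stood at 27.4, 17.2, 12.4 and 26 CPM in hybrid, 20, 19.4, 16.6 and 21.5 in combination, 19, 19.7, 13.9 and 26 in T3 and 7.34, 8.08, 11.2 and 15.7 in glucagon livers, against 14.9, 8.26, 6.86 and 10.4 in control livers. T3-holding libraries were mostly above glucagon and control libraries, with control 1 and glucagon 4 at the border. Cyp4a32, of the fatty acid hydroxylase cluster, rose in hybrid (1.03 ± 0.28, adjusted p = 0.0107), combination (0.93 ± 0.28, adjusted p = 0.0234) and T3 livers (0.95 ± 0.28, adjusted p = 0.0258) and in combination against glucagon (0.88 ± 0.28, adjusted p = 0.0285). The combination call ended without combination 1, combination 4, control 2 or control 3 (0.78 to 1.18), the T3 call without T3 4, control 2 or control 3 (0.79 to 1.20) and the last without combination 1, combination 2, combination 4, glucagon 1, glucagon 2 or glucagon 3 (0.73 to 1.11). Of its 50-base stretches 43.8% also occur in another gene, chiefly Cyp4a10.

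Cyp2r1 stood at 8.75, 10.5, 8.93 and 5.88 CPM in hybrid, 9.42, 9.49, 6.9 and 6.59 in combination, 6.01, 9.04, 6.02 and 7.99 in T3 and 13.4, 16, 11.1 and 14.4 in glucagon livers, against 17.6, 10, 11.9 and 12.2 in control livers. Most T3-holding libraries were below the controls, of which control 2 was lowest. Cyp2r1, which makes the liver's circulating form of vitamin D, fell in hybrid (-0.60 ± 0.21, adjusted p = 0.045), combination (-0.67 ± 0.21, adjusted p = 0.0303) and T3 livers (-0.84 ± 0.22, adjusted p = 0.0133) and when T3 was added to glucagon (-0.75 ± 0.21, adjusted p = 0.0141). These calls ended without hybrid 1, hybrid 3, hybrid 4, control 1 or control 4 for hybrid (-0.70 to -0.41), combination 3, combination 4 or control 1 for combination (-0.78 to -0.49), T3 3 or control 1 for T3 (-0.95 to -0.64) and combination 4 for the last (-0.86 to -0.67). Cyp27b1, which activates vitamin D in kidney, was called nowhere.

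Steroid-making P450s of the adrenal appeared in 1 library. T3 3 held 29.8 CPM of Cyp11a1, 23.2 of Cyp11b1 and 30.2 of Cyp21a1, where each other library had 0 to 0.32 CPM of Cyp11a1, 0 to 0.245 of Cyp11b1 and 0 to 2.12 of Cyp21a1. A list of 5 adrenal genes chosen after these values were seen (Star, Hsd3b1, Nr5a1, Chga and Dbh) summed to 963 raw counts in T3 3 and to 10 to 80 in the other libraries, and a list of 5 fat genes chosen likewise (Ucp1, Cidea, Adipoq, Plin1 and Fabp4) to 725 counts in T3 3, 798 in glucagon 3 and 61 to 367 in the other libraries. Raw counts are not scaled for library size, and T3 3 held 6949921 counts in all where glucagon 3 held 16320849. The part of these adrenal and fat genes in the results was not tested. Cyp21a1 gave 3.18 ± 1.20 (adjusted p = 0.0696) in T3 livers, or 0.0456 with lanes 1 to 4 of the other groups as a block, a value that rests on that library. Without T3 3, T3 lowered 11 and raised 2 of the P450 genes, and 815 and 763 of all genes. With T3 3 kept, it lowered 15 and raised 3 P450 genes, and 1373 and 944 of all genes. The count of P450 genes lowered was 12 without T3 1 and 12 without control 1.

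Beside the P450 genes, the reductase gene Por rose in all treated groups. Por stood at 680, 672, 882 and 748 CPM in hybrid, 747, 865, 713 and 687 in combination, 952, 993, 593 and 1030 in T3 and 665, 839, 818 and 1100 in glucagon livers, against 182, 259, 436 and 395 in control livers. Every treated library was above every control. Por rose in hybrid (1.23 ± 0.24, adjusted p = 0.000878), combination (1.24 ± 0.24, adjusted p = 0.00101), T3 (1.49 ± 0.24, adjusted p = 0.000336) and glucagon livers (1.43 ± 0.24, adjusted p = 0.000252), and the departure from the sum of the single effects was -1.67 ± 0.33 (adjusted p = 0.00536). Of 7 listed partners of P450s, Por included, 2 rose and 2 fell in hybrid, 1 rose and 2 fell in combination, and 1 rose and 3 fell in T3 livers, with Cyb5b and Pgrmc1 lower in all 3. Of the genes of heme handling, Fech, which inserts iron into heme, fell in hybrid (-1.01 ± 0.15), combination (-0.97 ± 0.15) and T3 livers (-0.80 ± 0.15), as did Blvrb, while Alas1, the first enzyme of heme synthesis, gave -0.22 ± 0.31 (adjusted p = 0.652) in hybrid livers.

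Markers of cell types moved with the groups too. Summed over 5 listed hepatocyte markers, hybrid livers had 74100 to 106000 CPM, combination 88200 to 140000, T3 79400 to 122000 and glucagon livers 152000 to 216000, against 121000 to 244000 CPM in control livers. Of these 5 genes Alb, Ttr, Fgb and Serpina1e fell in hybrid livers, Ttr in combination livers, Alb and Ttr in T3 livers and none in glucagon livers. The 5 Kupffer cell markers summed to 475 to 663 CPM in hybrid, 490 to 578 in combination, 648 to 789 in T3 and 183 to 253 in glucagon livers, against 279 to 396 in control livers. Of the 5, 4 rose in hybrid, 3 in combination and 4 in T3 livers, and 3 fell in glucagon livers. The 7 pericentral genes without P450s summed to 994 to 1130 CPM in hybrid, 1160 to 1350 in combination, 933 to 1060 in T3 and 1600 to 2250 in glucagon livers, against 655 to 3300 in control livers. Within that list Glul was not called in any group (-0.79 ± 0.34, adjusted p = 0.097 in hybrid livers), Rgn fell in hybrid (-1.86 ± 0.31), combination (-1.24 ± 0.31) and T3 livers (-1.58 ± 0.31), Oat fell (-1.74 ± 0.37) and Rhbg rose (1.12 ± 0.34) in T3 livers, and Axin2 rose in hybrid (1.14 ± 0.28) and combination livers (0.80 ± 0.28). The 5 listed periportal genes summed to 1060 to 1560 CPM in hybrid, 1090 to 1630 in combination, 597 to 1150 in T3 and 1380 to 1640 in glucagon livers, against 1150 to 1390 in control livers. The part of all these marker genes in the P450 changes was not tested.

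Hybrid and combination livers were compared within lanes 1 to 4 to set the joined molecule beside the 2 hormones given together. None of the 59 P450 genes was called by edgeR, which called 0.031% of all tested genes. DESeq2 gave an adjusted p for 57 of the 59, all but Cyp2b9 and Cyp21a1, and called none. Over all genes DESeq2 called 7 higher and 21 lower. By edgeR 4 P450 genes (6.78%) had an unadjusted p under 0.05, beside 6.9% of all genes. These 4 were Cyp4f39 (1.04 ± 0.36), Cyp2d13 (-0.96 ± 0.33), Cyp2d11 (-1.21 ± 0.46) and Cyp2c67 (-0.70 ± 0.30). The P450 median was -0.28, all genes' 0.01, and 43 of 59 changes were negative. The 95% interval of the difference lay within 2-fold either way for 23 genes and reached past it for 36, so for those 36 the data do not bound the difference within that size. For Cyp2e1 it ran from -1.43 to 0.13, for Cyp2c44 from -0.62 to 0.84, for Cyp3a11 from -0.82 to 0.67 and for Cyp2c29 from -1.48 to 1.20.

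Departure from the sum of the separate glucagon and T3 effects was called for 2 P450 genes, Cyp3a11 and Cyp4f39, described above, where 3.73% of all genes were called in either direction. With library totals alone Cyp3a11 was called and Cyp4f39 was not. This comparison takes in the T3 libraries of lane 5, so lane and the departure cannot be told apart. At an unadjusted p under 0.05 there were 8 P450 genes (13.6%), beside 16.8% of all genes.

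Mice of 1 group also differed among themselves in several of these genes at once, as seen in the values above; these genes were chosen after that was seen and no test was made. In hybrid livers Cyp2a4 ran high to low in mice 1, 3, 2 and 4, and Cyp1a2 in mice 4, 3, 2 and 1. In combination livers the order was 3, 2, 4 and 1 for Cyp2a4 and 1, 4, 2 and 3 for Cyp1a2. In T3 livers Cyp2a4 ran in the order 1, 3, 2 and 4 and Cyp1a2 in the order 2, 4, 3 and 1. Hybrid 1, combination 3 and T3 1, highest of their groups in Cyp2a4 and Cyp2a22, were the lowest of their groups in Cyp1a2, Cyp2c54 and Cyp2c44. In Cyp2c29 and Cyp2b10 these same 3 mice were the highest of their groups. Glucagon 3, highest of its group in Cyp2a4 and Cyp2a22, was lowest in Cyp1a2 (234 CPM) but highest in Cyp2c44 (402 CPM) and Cyp2c54 (86.6 CPM). Control 4, the highest control in Cyp2a4 and Cyp2a22, had 464 CPM of Cyp1a2, inside the control range of 212 to 744 CPM.

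**Figure D5:**
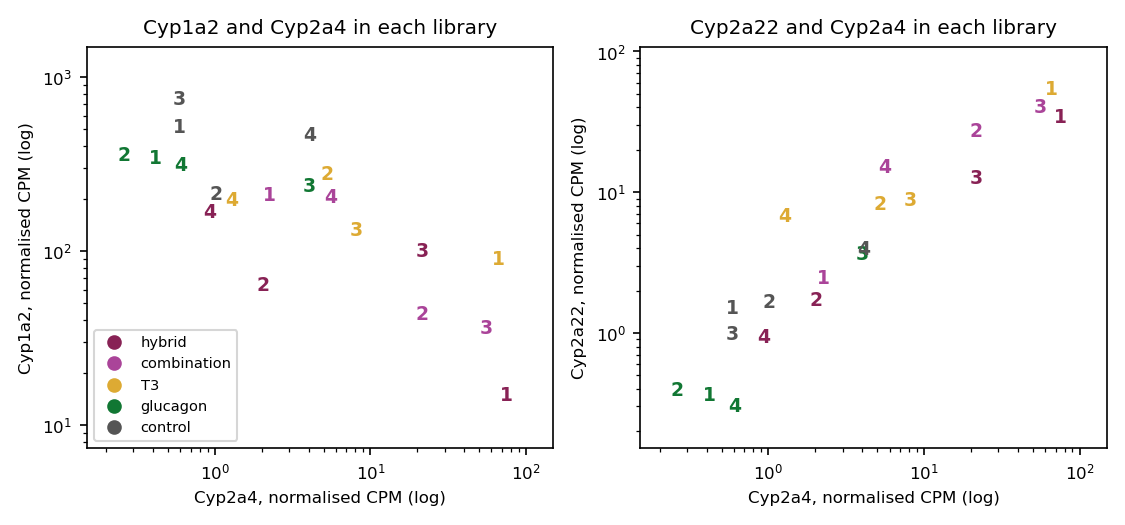
Cyp1a2 (left) and Cyp2a22 (right) against Cyp2a4 in normalised CPM on log axes; each number is a library of the group shown by colour. Hybrid 1, combination 3 and T3 1 have the highest Cyp2a4 and Cyp2a22 and the lowest Cyp1a2 of their groups, 14.7 CPM in hybrid 1. The order is not reversed throughout: hybrid 2 is below hybrid 3 in both Cyp2a4 and Cyp1a2, and control 4, the highest control in Cyp2a4, is mid-range in Cyp1a2.

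The other genes called in none of the 7 comparisons were Cyp1b1, Cyp20a1, Cyp2c38, Cyp2d40, Cyp2s1 and Cyp4b1. Over all 20 libraries they ranged from 0.294 to 6.81 CPM for Cyp1b1, 3.04 to 10.2 for Cyp20a1, 4.27 to 121 for Cyp2c38, 25 to 158 for Cyp2d40, 0.272 to 3.23 for Cyp2s1 and 5.89 to 16.2 for Cyp4b1. Cyp20a1, an orphan P450 of unknown substrate, came closest in combination livers (-0.71 ± 0.26, adjusted p = 0.0542, or 0.0481 with lane as a block). The genes below the filter, Cyp2b13 and Cyp2c65, reached 4.6 CPM in control 4 and 1.11 CPM in control 2 at most.

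Some calls depended on how the fit was made. Scaling by library totals alone ended the calls of Cyp2j9, Cyp2r1 and Cyp3a25 in hybrid against control, of Cyp1a1, Cyp1a2, Cyp2d10 and Cyp2r1 in combination against control, of Cyp2c37, Cyp2d34, Cyp2e1 and Cyp2r1 in T3 against control, of Cyp2e1, Cyp2r1, Cyp2u1 and Cyp4f15 in combination against glucagon, of Cyp4f39 in the additivity comparison, at adjusted p of 0.0516 to 0.298. Fitting only the groups compared, which changed both the libraries behind the spread and the genes that passed the filter, left Cyp2b9 in hybrid and combination against control and Cyp1a1 in combination against control untested. That fit ended the calls of Cyp1a1, Cyp2a4, Cyp2a5, Cyp2c37, Cyp2c50, Cyp2d10, Cyp2d13, Cyp2d26, Cyp2j6, Cyp2j9, Cyp2r1, Cyp3a25 and Cyp4a32 in hybrid against control, of Cyp1a2, Cyp2c54, Cyp2d10, Cyp2d22, Cyp2j6 and Cyp2r1 in combination against control, of Cyp2c37, Cyp2d22, Cyp2d34, Cyp2e1, Cyp2j6, Cyp2r1 and Cyp4a32 in T3 against control, of Cyp2d13, Cyp2g1 and Cyp4f15 in glucagon against control, at adjusted p of 0.0533 to 0.176. Leaving out control 2 and glucagon 3 together ended the calls of Cyp2a4 in hybrid against control, of Cyp4a32 in combination against control, of Cyp4a32 in T3 against control, of Cyp4f15 in glucagon against control, of Cyp2b10 in combination against glucagon, at adjusted p of 0.0562 to 0.139. RLE size factors ended the glucagon call of Cyp2g1 (adjusted p = 0.0508), and no filter on low counts ended none.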

How the data were processed

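RNA from 20 mouse livers went through Qiagen extraction and a Lexogen library kit (source: the labels' protocols). The deposited values are raw read counts per gene symbol, which the authors obtained against mm10 using HTSeq, according to the submitters' processing notes. Which aligner, annotation and strand option they used is not given in the sources used here. Genes with at least 10 counts in enough libraries and 15 in all (edgeR's filterByExpr) were kept, 12907 of 13319, and 412 were dropped. Counts were scaled with TMM and tested with edgeR 4.0.16 (limma 3.58.1, R 4.3.3) in a quasi-likelihood model of 5 group means over 20 libraries, with Benjamini-Hochberg adjustment over all tested genes and a two-sided threshold of 0.05. The common biological coefficient of variation was 27.8%. Estimated within each group it was 43.2% in control, 26.1% in glucagon, 22.6% in hybrid, 19.2% in T3 and 18.9% in combination livers. The common value thus lies below the spread of the controls, which enter every contrast with control. DESeq2 1.42.0, RLE size factors, library totals alone, no filter, the replicate block, only the groups compared, each library left out, and control 2 and glucagon 3 left out together were alternatives. On data simulated for hybrid against control (12785 genes), 46% of 100 genes changed by a log2 of 1 and 93% of 100 changed by 2 were recovered, with 6 unchanged genes among 145 calls. The simulation gave all groups the same spread for each gene. It therefore does not measure recovery or false calls at the wider spread of the real controls.

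Replicate numbers 1 to 4 mark lanes 1 to 4 in all groups but T3, per the labels, so the block fits lanes 1 to 4 and gives the T3 libraries, all in lane 5, no lane term. Over 24 same-numbered pairs the deviations from group means correlated from -0.318 to 0.462 (median 0.071, 10 over 0.1). The members and lists were chosen with earlier results of these data known. Named genes are the 12 with the highest mean CPM, up to 3 highest and 3 lowest called changes per comparison at a mean of 1 CPM or more, and a panel of 7, 28 in all. Positions are from GENCODE M21 (GRCm38) for 61 of the 63 genes and promoters from RefSeq (GRCm38.p6) for 52. The 3-count limit covers counting error only.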

Additional observations from a re-analysis of the deposited data

Results flagged for a closer look

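Over 140 groups of 4 libraries (28 named P450 genes in 5 groups), 16 held a library far from the other 3, by Dixon's ratio. Chance gives about 1 in 20 for independent, normally spread values. Here many genes were picked for called changes in these data and the same libraries recur, so the 16 cannot be judged by that rate. Hybrid 1 stood high in Cyp2c29 (694 CPM) and Cyp2b10 (19.4 CPM), and hybrid 4 in Cyp2d9 (160 CPM) and Cyp2d10 (216 CPM). Combination 4 stood high in Cyp26b1 (13.8 CPM). T3 1 stood high in Cyp2a4 (66.2 CPM) and Cyp2a22 (53.8 CPM). Glucagon 3 stood high in Cyp2a4 (4.02 CPM), Cyp2a22 (3.59 CPM), Cyp26b1 (34.8 CPM) and Cyp2b9 (12.7 CPM), and it is also the library with the highest sum of muscle genes, 1940 CPM. Its fat genes summed to 798 raw counts of 16320849. T3 3 had 725 of 6949921, so fat genes took a larger share of T3 3. The part of those cells was not tested. Control 2 stood low in Cyp4f15 (147 CPM) and Cyp2d12 (1.06 CPM). Control 4 stood high in Cyp2a4 (4.07 CPM), Cyp2b9 (48.3 CPM) and Cyp2g1 (2.56 CPM).

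The effect of T3 differed with and without glucagon in 2 genes by the interaction term of the edgeR fit, in which lane 5 of the T3 libraries cannot be told apart from T3. The difference was 2.07 in log2 for Cyp3a11 and -2.25 for Cyp4f39.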

How the results depend on the processing

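Leaving out each library in turn gave 4 to 7 P450 genes raised and 2 to 8 lowered by glucagon, 1 to 4 and 11 to 21 by T3, 2 to 6 and 15 to 27 by the combination, 4 to 7 and 24 to 30 by the hybrid, 2 to 7 and 17 to 20 for combination against glucagon, 0 to 0 in either direction for hybrid against combination, and 0 to 1 in each direction for additivity. Over all genes the counts moved too, with 948 to 1656 raised and 1040 to 2104 lowered by glucagon. T3 gave 662 to 1365 and 815 to 1814, the combination 882 to 1626 and 973 to 1926, and the hybrid 1132 to 1767 and 1201 to 1952. Combination against glucagon gave 1218 to 1346 and 1041 to 1158, and additivity 124 to 361 and 219 to 460. Hybrid against combination gave 0 raised and 1 to 5 lowered. Library totals alone gave 8 lowered by glucagon, 7 raised by the combination, 11 raised for combination against glucagon and 0 lowered for additivity. Over all genes the counts were then 2326, 1787, 3236 and 212, in the same order. Fitting only the groups compared, with fewer libraries and with 53 to 56 of the 59 P450 genes passing the filter, gave 2 lowered by glucagon, 9 lowered by T3, 11 lowered by the combination, and 3 raised and 14 lowered by the hybrid. Over all genes that fit gave 363, 233, 443, 600 and 608 in the same order. The main fit gave 1541, 1373, 1407, 1440 and 1704. For combination against glucagon the smaller fit lowered 28 P450 genes and 1992 of all genes, against 21 and 1311 in the main fit. Without the filter T3 raised 5, DESeq2 gave 5 raised by the combination, and without control 2 and glucagon 3 together glucagon lowered 11. Over all genes these settings gave 954, 1311 and 1142. The replicate block (lanes 1 to 4, no term for T3) gave 5 raised by the combination, and 1360 over all genes. Beyond the calls given beside their genes the block changed no other call. Cyp2b9 in the combination against control turned to 0.14 without control 4, its values over the left-out libraries running from -5.61 to 0.14. Of single-gene values, 6208 kept their side of the threshold, 200 lost the threshold, 156 gained it and 1 reversed sign while called in a fit. A change of sign in a value called in neither fit was counted as kept. DESeq2 gave no adjusted p for 14 single-gene values. The causes were not tested. With 4 mice a group and control 2 apart from the other controls, changes near 2-fold can be missed.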

Other observations

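Promoters of 300 bases (250 before to 50 after the start, RefSeq, GRCm38.p6) were found for 52 of the 63 P450 genes, 58 promoters in all, and were searched on both strands beside all 32851 promoters of the table. The HNF4A-type motif CAAAGTCCA was in 10.3% of the P450 promoters (6 of 58: Cyp2c65, Cyp2c67, Cyp2c68, Cyp2c69, Cyp2c70 and Cyp3a11) and in 0.475% of all promoters. The nuclear receptor half-site AGGTCA was in 25.9% of the P450 promoters and 16.3% of all, the STAT motif TTCNNNGAA in 3.45% and 8.3%, and the cyclic AMP response motif TGACG in 6.9% and 20.8%. Motifs were picked with results known, and promoters of neighbouring copies share sequence, so these shares are descriptions with no test. Of the 6 genes with CAAAGTCCA, Cyp2c67 and Cyp3a11 fell in every T3-holding group, Cyp2c68, Cyp2c69 and Cyp2c70 were called nowhere, and Cyp2c65 was not tested.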
